A study of Mus musculus with 18 samples.

Results

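The nuclear genes that encode subunits of the 5 oxidative phosphorylation complexes were followed in the spinal cords of SMNΔ7 mice, a model of spinal muscular atrophy (SMA), and of their controls. Members were chosen by symbol: loci with a single gene symbol of the Nduf (complex I), Sdh (complex II), Uqcr (complex III), Cox (complex IV, the forms Cox4i to Cox8a) and Atp5 (complex V) series, without processed pseudogenes, at FPKM 1 or more in at least 1 group. FPKM counts fragments relative to transcript length and library depth, so a level compared between genes rests on the length correction. The median annotated transcript length was 651 bases over the members and 2291 over protein-coding genes, and the correction was not checked. This gave 74 of 58570 loci, 34 in complex I, 4 in complex II, 8 in complex III, 12 in complex IV and 16 in complex V. The rule itself uses no difference between groups, but it was chosen with earlier results of these data known.

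Whole cords were taken from heterozygous controls and from homozygous SMNΔ7 pups on postnatal days 2, 6 and 10 (P2, P6, P10), with 3 labelled libraries in each of the 6 groups. SMNΔ7 pups lack mouse Smn1 and carry human SMN transgenes. The label gives the strain as SMNdelta7 for controls and SMA pups alike, and the transgenes that a control pup carried were not given in the sources used here. Total RNA was sequenced after ribosomal RNA removal. The authors combined the libraries of a group into 1 value per locus, so no value below has a replicate number or standard deviation. In whole cord, fewer cells of a type and less RNA per cell cannot be told apart.

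Oxidative phosphorylation takes electrons from NADH at complex I and from succinate at complex II, passes them through ubiquinone, complex III and cytochrome c to oxygen at complex IV, and uses the resulting proton gradient to make ATP at complex V. Most subunits are encoded in the nucleus and imported, while a small core of all complexes except complex II is encoded by mitochondrial DNA. Neurons draw most of their ATP from this pathway.

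The group labels were first held against Smn1, the gene that affected pups lack. Its level was FPKM 2.70, 4.46 and 3.54 in the control groups at P2, P6 and P10, and 0.0210, 0 and 2.82 in the SMA groups. The group labelled SMA at P10 was thus close to its control, against its label, and results that rest on it are given below with and without it where the fit allows. Estimated fragments were 6881671 to 7386338 per group. The spinal cord label was held against markers of neurons, for which 5 of 5 genes were at FPKM 1 or more in every group, with summed levels of FPKM 367 to 464. Markers of mature oligodendrocytes did not follow age alike in the genotypes: the summed FPKM of 5 markers was 261, 1745 and 7342 in control at P2, P6 and P10, and 3339, 1962 and 4054 in SMA. The SMA group at P2 was therefore above its control by this measure and the SMA group at P10 below it.

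The order of the complexes by median level was the same in all 6 groups, from complex I over II, III and V to complex IV. In control cord at P10 the median FPKM was 45.7 for complex I, 52.8 for complex II, 71.0 for complex III, 138 for complex IV and 105 for complex V. These are levels per length, and no test was made between complexes. In the same group complexes IV and V had summed FPKM of 1739 and 1799 but took 0.101% and 0.216% of estimated fragments. Together the members took 0.539% to 0.599% of all estimated fragments in a group. The highest member of every group was Cox6c or Atp5b, the catalytic β subunit of ATP synthase. In control cord at P10 the highest of each complex were Ndufa4 (150 by FPKM), Sdha, Uqcr11, Cox6c (309) and Atp5b, and the lowest Ndufa4l2, Sdhb, Uqcrq, Cox6b2 and the Atp5o locus described below.

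**Figure D1:**
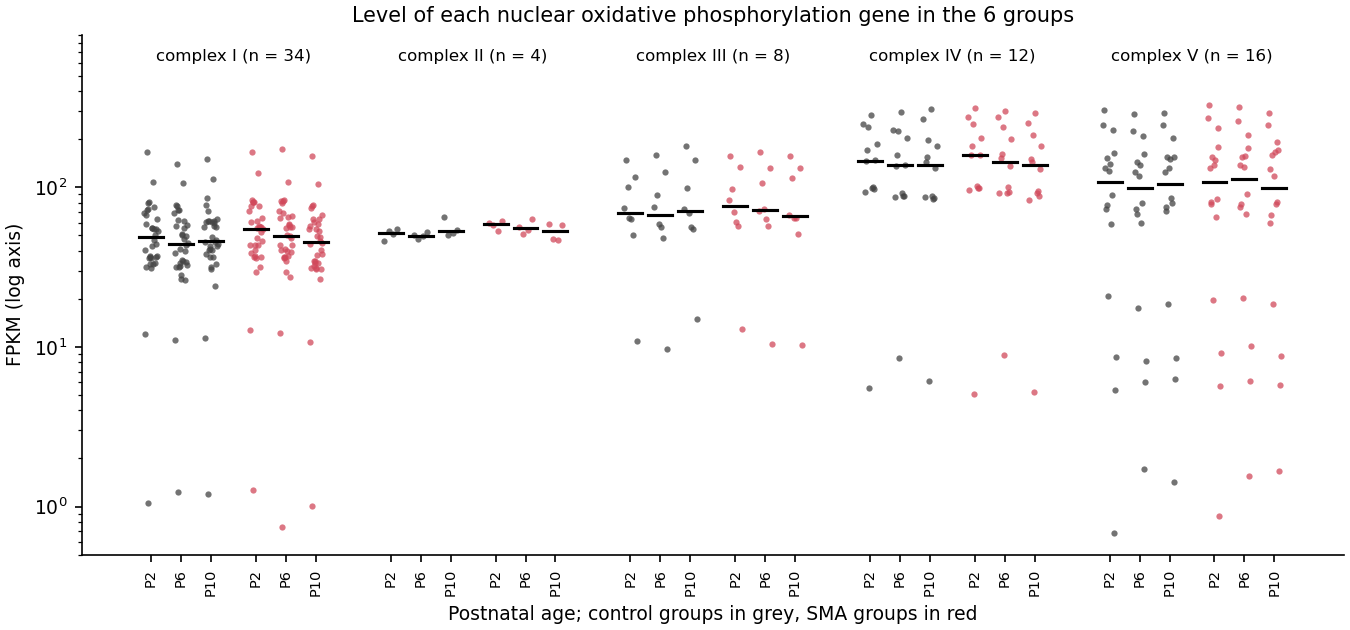
Level of each member in FPKM (log axis) in the 3 control groups (grey) and the 3 SMA groups (red), by complex; each point is 1 gene and the black line is the median of the complex in that group. The medians of complexes IV and V lie above those of complexes I to III in every group, and the lowest points are Ndufa4l2 and Atp5o.

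Among the catalytic subunits, Ndufv1 binds NADH in complex I and Ndufs1 carries its electrons on. Ndufs1 was at FPKM 54.5, 55.7 and 59.9 in control at P2, P6 and P10 and 55.1, 59.0 and 62.9 in SMA. P10 was the highest age for Ndufs1 in both genotypes.

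Complex II holds the flavoprotein Sdha, the iron-sulfur protein Sdhb and the membrane anchors Sdhc and Sdhd, and it is the one complex with no mitochondrially encoded subunit. Its 4 genes lay close together, at FPKM 45.8 to 65.2 over all groups. Sdhb was at 52.8, 47.4 and 50.3 in control and 57.9, 51.1 and 47.3 in SMA. Complex III is built on the core proteins Uqcrc1 and Uqcrc2 and the Rieske iron-sulfur protein Uqcrfs1. Uqcrc1 was at FPKM 63.7, 58.9 and 69.2 in control and 69.6, 72.8 and 64.2 in SMA, and Uqcrfs1 was at 50.2, 47.9 and 54.3 in control and 57.2, 57.1 and 50.7 in SMA. For both, SMA was the higher group at P2 and P6 and the lower one at P10.

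In complex IV, Cox5a was at FPKM 92.6, 87.3 and 86.9 in control and 96.3, 91.6 and 83.3 in SMA, and Cox5b at 146, 136 and 144 in control and 159, 152 and 150 in SMA. In complex V, Atp5a1 and Atp5b form the head that makes ATP. Atp5b was at FPKM 304, 286 and 293 in control and 326, 317 and 292 in SMA, and Atp5a1 at 246, 225 and 244 in control and 270, 261 and 245 in SMA. Both head subunits were above control in SMA at P2 and P6 and close to it at P10.

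Several subunits exist in alternative forms, and the ubiquitous form was the abundant one in each pair that could be compared. Cox4i1 was at FPKM 229 to 277, while Cox4i2, the lung and hypoxia form, stayed under FPKM 1 in every group, at most 0.796. Cox6a1 was at 145 to 181, and Cox6a2, the heart and skeletal muscle form, was at most 0.216. Cox6b1 was at 199 to 249, and Cox6b2, the form known from testis, was at 5.04 to 8.92. Ndufa4, now regarded as a subunit of complex IV, was at 140 to 174, and its relative Ndufa4l2 at 0.744 to 1.27. Cox4i2, Cox6a2 and Cox7b2 fell outside the rule through these low levels. The 3 genes for the c ring of ATP synthase encode the same mature protein: Atp5g3 was at 117 to 138, Atp5g1 at 17.5 to 20.9, and Atp5g2 was counted only in a locus joined with a microRNA gene, at 44.7 to 65.2.

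Some symbols need care. The single-symbol locus named Atp5o was at FPKM 0.686 to 1.71, while a locus joining Atp5o with Donson was at 152 to 195, so the first is not the level of the Atp5o gene. Ndufb8, Ndufb2 and Ndufs8 were likewise held only in joined loci and are not members. Atp5s and Atp5sl match the symbol series but are not subunits of ATP synthase, and Cox7a2l is a supercomplex factor. Of the 74 symbols, 73 were found in the GENCODE M21 annotation of GRCm38, and all 73 are protein-coding.

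The members varied less over the 6 groups than other genes. Over 72 members at FPKM 5 or more, the highest group was a median of 1.22 times the lowest, against 1.35 times over all 10431 genes at that level. Of these members 70 stayed under 1.5-fold (97.2%, against 69.6% of all genes), and 0 went over 2-fold (10.6% of all genes did). This is a description over genes, which are not independent replicates, and the genes were not matched on abundance. The most even members were Cox6c, Atp5f1, Ndufb3, Atp5c1 and Cox8a.

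**Figure D2:**
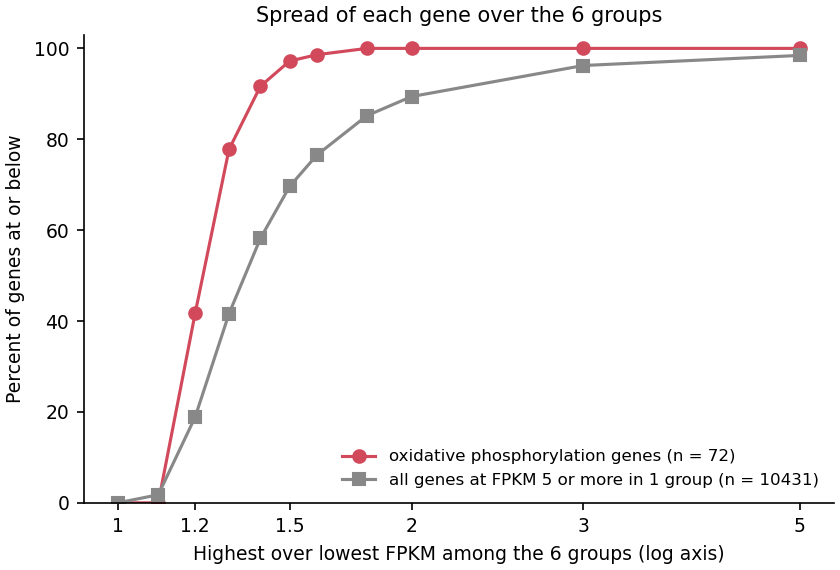
Percent of genes (y axis) whose highest FPKM among the 6 groups is at most the given multiple of the lowest (x axis, log scale), for 72 members and 10431 genes at FPKM 5 or more in 1 group. At 1.3-fold the share is 77.8% of the members and 41.6% of all genes.

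A pair of members passed 1.5-fold. Cox6b2 (chromosome 7, 4751792 to 4753094, GRCm38) was at FPKM 5.53, 8.51 and 6.08 in control at P2, P6 and P10 and 5.04, 8.92 and 5.24 in SMA, 1.77-fold from end to end. It was highest at P6 in both genotypes. Uqcrq (chromosome 11, 53427922 to 53430831), a small subunit of complex III at the ubiquinone site, was at 10.8, 9.67 and 15.0 in control and 13.0, 10.4 and 10.3 in SMA, 1.55-fold from end to end. Control at P10 stood above the other 5 groups.

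The members with a GENCODE entry lie on 19 chromosomes, and their promoters were searched for shared letters. RefSeq start sites (GRCm38.p6, windows of 250 bases before to 50 bases after the start) were found for 62 of the 74 members, 3 of them by a synonym. Each window was searched on both strands for the letters GCGCA joined directly to their reverse complement (NRF1), CCGGAAG (the core of ETS factors such as GABPA) and AAGATGGCG (YY1), all known regulators of respiratory genes. Of 68 member start sites, 4 held the NRF1 letters (5.88%, against 1.95% of 8470 start sites of protein-coding genes at FPKM 5 or more in 1 group, and 0.971% of all 32851 start sites). The ETS letters were in 15 of 68 (22.1%, against 16.5% and 8.86%), and the YY1 letters in 9 of 68 (13.2%, against 3.09% and 1.40%). In complex I the ETS letters were in 3 of 31 start sites (9.68%), and in complexes II to V in 2 of 3, 2 of 5, 3 of 10 and 5 of 19. The YY1 letters were in 5 of 31 in complex I, 4 of 19 in complex V and 0 in complexes II to IV. Counted by gene, 8 of 62 members held the YY1 letters (12.9%, against 3.89% of protein-coding genes at FPKM 5 or more). Among the 9 start sites Atp5sl had more than 1. In 7 of the 9 the YY1 letters lay after the start, as they did in 55.1% of all start sites that hold them. At least 1 of the 3 motifs was in 36.8% of member start sites, against 20.4% and 10.8%. A match is a description of letters and not a bound site.

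The 5 stretches that follow show where the most frequent of the motifs, ETS, sits in members of complexes II to V. They were picked by hand after the search from the members that hold it before the RefSeq start. In GENCODE M21 the last 23 bases of the Cox6a1 stretch, its motif included, lie in the first exon of that gene, as do the last 1 of Uqcrh, 9 of Uqcr11 and 4 of Atp5e, whose motifs lie outside it, while 30 bases of the Sdhd stretch overlap an exon on the other strand. Each reads 5′ to 3′ along the gene and ends at the base before the RefSeq start, and capitals mark the ETS letters on either strand (CCGGAAG or CTTCCGG).
Cox6a1 (complex IV, minus strand, chr5:115348959-115349078): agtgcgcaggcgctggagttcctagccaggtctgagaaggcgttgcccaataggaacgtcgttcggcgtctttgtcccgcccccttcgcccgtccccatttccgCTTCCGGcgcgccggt
Uqcrh (complex III, minus strand, chr4:116075071-116075190): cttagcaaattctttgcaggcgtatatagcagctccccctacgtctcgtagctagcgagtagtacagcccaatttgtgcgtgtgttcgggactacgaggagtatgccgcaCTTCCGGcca
Uqcr11 (complex III, minus strand, chr10:80406822-80406941): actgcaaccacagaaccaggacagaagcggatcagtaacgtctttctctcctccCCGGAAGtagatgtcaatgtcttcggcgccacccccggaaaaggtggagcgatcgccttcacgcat
Atp5e (complex V, minus strand, chr2:174464102-174464221): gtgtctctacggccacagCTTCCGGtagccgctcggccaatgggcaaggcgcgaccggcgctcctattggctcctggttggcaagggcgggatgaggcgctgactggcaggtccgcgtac
Sdhd (complex II, minus strand, chr9:50603850-50603939): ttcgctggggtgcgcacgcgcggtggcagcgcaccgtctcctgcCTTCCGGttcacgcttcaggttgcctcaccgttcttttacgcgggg

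The motif began 16 bases before the start in Cox6a1, 10 in Uqcrh, 66 in Uqcr11, 102 in Atp5e and 46 in Sdhd. Uqcr11 was the most abundant member of complex III, at FPKM 148, 158 and 181 in control and 157, 165 and 158 in SMA. Uqcrh, the hinge protein of the same complex, was at 116, 124 and 148 in control and 133, 131 and 131 in SMA. In both genes control at P10 was the highest group.

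SMA and control cords were compared at each age; these comparisons share their groups with those between ages given later. At P2 the members were slightly higher in SMA as a group, and none passed the test. Of 73 members tested, 62 had a log2 ratio of SMA over control above 0, with a median of 0.09. Over all 19114 genes tested 49.0% did, with a median of -0.01, and among genes at FPKM 5 or more in 1 group 53.9% did, with a median of 0.02. The median was 0.09 for complex I, 0.15 for complex II, 0.15 for complex III, 0.08 for complex IV and 0.09 for complex V. By the z test on the deposited intervals 0 members had an adjusted p under 0.05 (0.126% of all genes were called), and 0 had an unadjusted p under 0.05 (0.743% of all genes).

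Ndufc1, an accessory subunit of the membrane arm, had an FPKM of 33.0 for control and 43.6 for SMA, a log2 ratio of 0.40 ± 0.78 (SE). Sdha (chromosome 13, 74322254 to 74350280) was at 45.8 and 59.2, a ratio of 0.37 ± 0.72, and Ndufv1 (chromosome 19, 4007384 to 4012806), which binds NADH, at 37.1 and 46.0, a ratio of 0.31 ± 0.47. These were the top 3 ratios, and the deposited intervals of control and SMA overlapped in each and in every other member (0.23% of all genes had intervals that did not overlap). The highest in the other complexes were Uqcrq at 0.26, Atp5j at 0.15 and Cox4i1 at 0.15, and the lowest by complex were Cox6b2 at -0.13, Ndufb3 at -0.09, Atp5j2 at -0.09, Uqcrc2 at -0.06 and Sdhc at 0.06. The SE is large against these ratios: its median over the members was 0.47 on the log2 scale.

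Other cell markers moved with the same contrast, in either direction. Of the mature oligodendrocyte list, which held 1 called gene, 5 of 5 genes were at FPKM 1 or more and none at 0 in control and SMA at P2, with the summed level of 261 against 3339 given above. The astrocyte list (4 of 4 genes) was at 218 against 416. The brown fat list was at 10.2 against 18.8, with 3 of 6 genes at FPKM 1 or more in each group, and Ucp1, which defines that tissue, was at 3.66 against 7.70. Their part in the ratios of the members was not tested.

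At P6 more members lay above control, but so did genes in general. Of 74 members 67 had a ratio above 0, with a median of 0.15, against 60.1% of all 19631 genes tested with a median of 0.07. Genes at FPKM 5 or more in both groups were shifted by 0.11, and relative to that shift the median of the members was 0.04, with 47 above it and 27 below. The deposited medians were 0.16 for complex I, 0.16 for complex II, 0.14 for complex III, 0.07 for complex IV and 0.16 for complex V. Relative to the shift complex IV turned to -0.04 and the other 4 kept medians of 0.03 to 0.05. The z test called 0 members (0.0458% of all genes were called), and 0 had an unadjusted p under 0.05 (0.168% of all genes). The intervals of every member overlapped (0.117% of all genes had intervals that did not).

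Ndufv1 had the highest ratio of complex I and of all members at P6, with 32.5 FPKM for control and 43.6 for SMA, 0.42 ± 0.48. Uqcrc1 was highest in complex III (58.9 and 72.8, 0.31 ± 0.44), Sdhd in complex II (52.1 and 63.5, 0.29 ± 0.42) and Cox4i1 in complex IV (229 and 277). The deposited interval of Cox4i1 reached down to 0 in each group, so its ratio of 0.27 had an SE of 2.87. Atp5sl was highest among the Atp5 symbols at 0.31. The lowest were Ndufa4l2, at FPKM 1.24 and 0.744 with a ratio of -0.73 ± 2.78, Uqcr10 at -0.10, Cox7c at -0.02, Sdhb at 0.11 and the Atp5o fragment at -0.14.

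At P6 the oligodendrocyte sum was alike, 1745 in control and 1962 in SMA, whereas the brown fat list was at 5.66 against 23.8. Ucp1 was at 1.05 in control and 8.44 in SMA, and 3 of 6 list genes were at FPKM 1 or more in each group, with Elovl3 at 0 in control. Cox8b, a complex IV subunit known from muscle and brown fat that the rule does not take in, was at 2.06, 0.33 and 0 in control and 4.71, 4.65 and 0 in SMA at P2, P6 and P10. Brown fat holds many mitochondria, and its part in the ratios of the members was not tested.

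At P10, where the SMA group had Smn1 near control, the balance was turned. Of 74 members 47 were below control, with a median of -0.07, against a median of 0.04 over all 20157 genes tested, of which 55.6% were above 0. Among genes at FPKM 5 or more in 1 group 52.6% were above 0, with a median of 0.02. The median was -0.08 for complex I, -0.12 for complex II, -0.11 for complex III, -0.01 for complex IV and 0.01 for complex V. The z test called 0 members (0.0397% of all genes were called), and 0 had an unadjusted p under 0.05 (0.213% of all genes). All member intervals overlapped here too (0.0794% of all genes had intervals that did not). The oligodendrocyte sum in SMA was 4054 against 7342, the astrocyte sum 451 against 609 and the brown fat sum 2.36 against 2.74. The Schwann cell sum was 123 against 251, with 3 of 3 genes lower in SMA and 2 of them at an unadjusted p under 0.05, the sum for fibroblasts and meninges 62.3 against 113, with 4 of 4 lower, and the motor neuron sum 20.8 against 28.4, with 4 of 5 lower. The z test called none of these genes, and the part of these cell types was not tested.

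Uqcrq had the lowest ratio at P10, with 15.0 FPKM for control and 10.3 for SMA, -0.55 ± 0.56. Ndufa8 (40.5 and 32.1) was at -0.34 ± 0.45 and Atp5d (75.5 and 60.0), a subunit of the head of ATP synthase, at -0.33 ± 0.88. Cox6b2 was lowest in complex IV at -0.21 and Sdhc in complex II at -0.15. The highest by complex were the Atp5o fragment at 0.24, Uqcrb at 0.22, Cox7a2l at 0.17, Ndufs4 at 0.16 and Sdhd at 0.11. None of these had an unadjusted p under 0.05 in the z test.

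**Figure D3:**
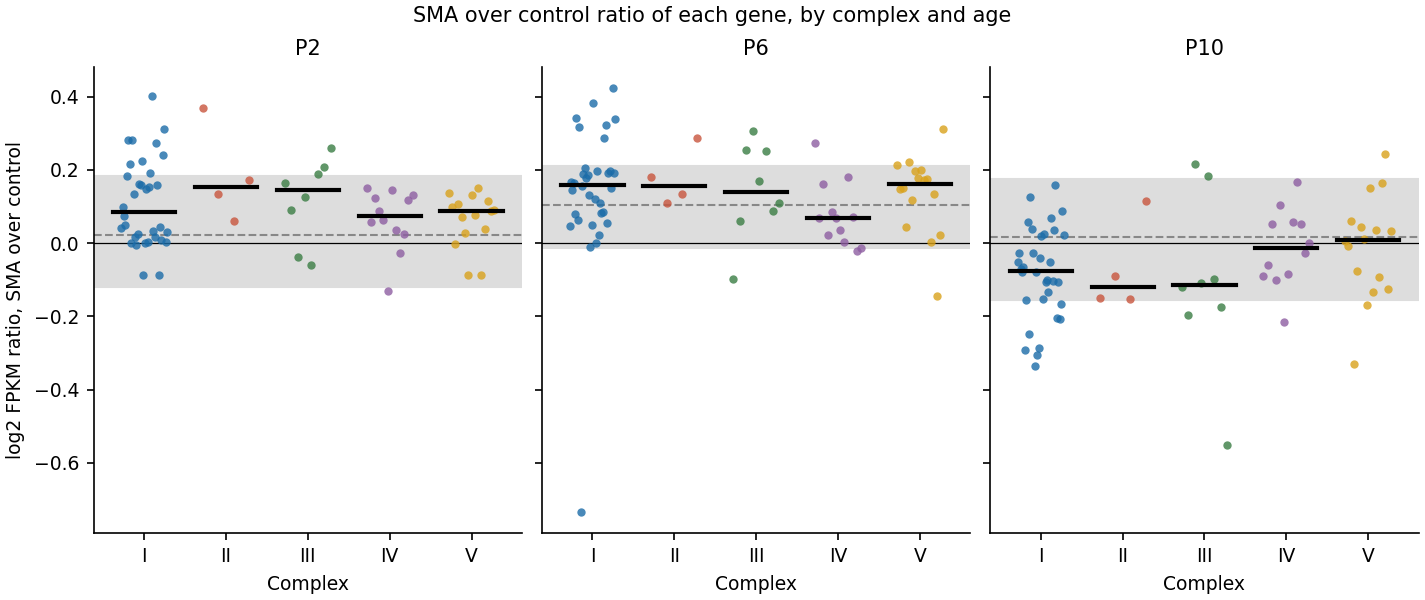
Log2 ratio of SMA over control FPKM for each member (points) by complex at P2, P6 and P10, with the complex median (black line), the quartiles of all genes at FPKM 5 or more in 1 group (grey band) and their median (dashed line). Points lie mostly above 0 at P2 and P6 and, for complexes I to III, mostly below 0 at P10.

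Read gene by gene over the 3 ages, 39 of 73 members were above control at P2 and P6 and below it at P10 (53.4%, against 21.9% of 17857 genes tested at every age and 28.2% of those at FPKM 5 or more). Another 17 of 73 were above control at all 3 ages (23.3%, against 12.3% of all genes), and 0 were below it at all 3. Sdhd, Ndufa5, Ndufs3, Atp5h and Atp5l were among these 17, and no member was above by 0.2 or more at every age. Genes are not independent replicates, so these shares carry no p.

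Within complex I the assembly modules differed in this pattern. The membrane arm, which pumps protons, had 13 of its 17 genes above control at P2 and P6 and below at P10, and 15 of 17 below control at P10, with a median of -0.10. The N module, which takes electrons from NADH, had 4 of 8 and a median of -0.03 at P10, and the Q module, which passes them to ubiquinone, 3 of 7 and -0.03. In ATP synthase the head was at a median of -0.01 and the membrane part with its stalk at 0.02. The modules were assigned after these values were seen, and differences between them were not tested.

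The change of the SMA against control difference from P2 to P10 was tested for each gene. It was below 0 for 53 of 73 members, with a median of -0.13 against 0.05 over all 18222 genes. Over genes at FPKM 5 or more in 1 group the median was -0.0041. The z test called 0 members (0.0659% of all genes were called), and 0 had an unadjusted p under 0.05 (0.938% of all genes). The median was -0.14 for complex I, -0.22 for complex II, -0.29 for complex III, -0.10 for complex IV and -0.11 for complex V. Uqcrq had the lowest value, -0.81 ± 0.82, and the lowest of the other complexes were Ndufa2 at -0.57, Sdha at -0.52, Atp5d at -0.44 and Cox4i1 at -0.24. The highest were Uqcrb at 0.25, Ndufs4 at 0.24, Cox7a2l at 0.19, Atp5j2 at 0.12 and Sdhd at -0.06. This test rests on the SMA group at P10 throughout.

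With the 3 ages taken as replicates of the genotype difference, limma on log2(FPKM + 1) gave a median of 0.06 on that scale over the members, with 62 of 74 above 0, against 0.03 and 60.7% over 21960 genes. Among genes at FPKM 5 or more in 1 group, 71.6% were above 0, with a median of 0.05, and with the differences centred on the median 40 of 74 members remained above 0, with a median of 0.0083. It called 0 members (0.00455% of all genes were called), and 0 had an unadjusted p under 0.05 (2.05% of all genes). The alternative fit, edgeR on the rounded expected counts, also called 0 members, and its calls over all genes were not counted. The smallest p was that of Sdhd, at FPKM 54.3, 52.1 and 53.9 in control and 61.1, 63.5 and 58.3 in SMA. SMA was above control at each age for this gene, 0.19 ± 0.09 (SE), with an unadjusted p of 0.0796 and an adjusted p of 0.999 in limma.

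The size of this difference moved with the ages used. Without P2 the median over the members was 0.04 with 50 of 74 above 0, and without P6 it was 0.03 with 49 of 74 above 0. Without P10 it was 0.11 and 70 of 74 were above 0. Over all 20720 genes the median was then 0.02 and 55.4% were above 0. The share among genes at FPKM 5 or more in 1 group was not counted for this fit. The SMA group at P2, with its mature oligodendrocyte sum of 3339 against 261 in control, remained in it. Of the ages left, P6 carried the shift of 0.11 given above for the more abundant genes, against 0.01 at P2. That shift was not removed from this fit. How far the members stood above it without P10 was not tested. limma again called 0 members (0.029% of all genes were called), and 3 had an unadjusted p under 0.05 (6.49% of all genes). Among them were Ndufv1 at 0.36 ± 0.10 and Ndufa2 at 0.30 ± 0.10, each with an adjusted p of 0.707 in limma. With P2 and P6 alone, each gene rests on a pair of differences.

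**Figure D4:**
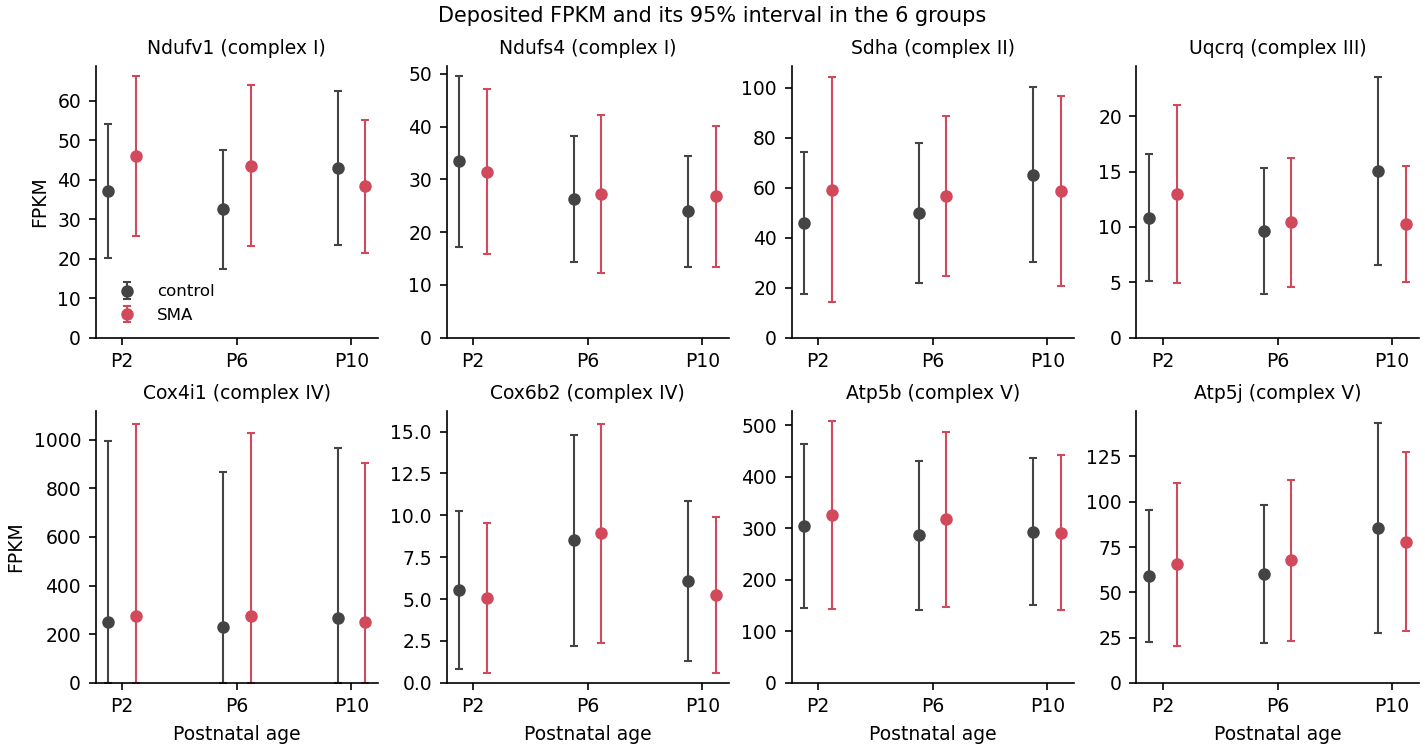
Deposited FPKM (points) with the lower and upper bound of the authors' model interval (bars) in control (grey) and SMA (red) groups at P2, P6 and P10 for 8 members. The bars overlap between genotypes and between ages in every panel, and those of Cox4i1 reach 0.

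P10 was next compared with P2 within each genotype. In control cord they were balanced: 36 of 74 were higher at P10 and 38 lower, with a median of -0.01 against 0.02 over all 19956 genes tested. The median was 0.04 for complex I, 0.01 for complex II, 0.12 for complex III, -0.12 for complex IV and -0.01 for complex V, and 9 of the 12 complex IV genes were lower at P10. The z test called 0 members (0.631% of all genes were called), and 0 had an unadjusted p under 0.05 (3.51% of all genes). No member had intervals that did not overlap (1.36% of all genes did).

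Single members nonetheless lay on either side in control. Atp5j, coupling factor 6 of ATP synthase, was at FPKM 58.9, 60.0 and 85.5 at P2, P6 and P10, a P10 to P2 ratio of 0.54 ± 0.68. Sdha was at 45.8, 49.9 and 65.2 (0.51 ± 0.60), Uqcrq at 0.47 and Cox6b2 at 0.14. The Atp5o fragment was at 1.05 from levels near FPKM 1. Ndufs4 (chromosome 13, 114287795 to 114388258), an accessory subunit whose loss causes Leigh syndrome, was at 33.4, 26.2 and 24.0, a ratio of -0.48 ± 0.48. Cox6b1 was at -0.26, Atp5j2 at -0.18, Uqcrc2 at -0.17 and Sdhb at -0.07. Values of P6 lay between those of P2 and P10 for Ndufs4, Sdha and Atp5j.

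In SMA cord, where both end points are groups whose markers stood apart, most members were lower at P10 than at P2. There were 61 of 74 below 0, with a median of -0.16 against 0.05 over all 19938 genes and -0.01 over those at FPKM 5 or more in 1 group. The median was -0.23 for complex I, -0.12 for complex II, -0.07 for complex III, -0.15 for complex IV and -0.06 for complex V. The z test called 0 members (0.0602% of all genes were called), and 0 had an unadjusted p under 0.05 (0.331% of all genes). All member intervals overlapped (0.11% of all genes had intervals that did not). From P2 to P6, which leaves out the group labelled SMA at P10, the median in SMA was -0.02 with 44 of 74 below 0, and in control -0.09 with 57 of 74 below 0. Genes at FPKM 5 or more in 1 group had a median of -0.05 in control over the same ages. Centred, the members had a median of -0.03 in each genotype, with 45 of 74 below in control and 47 of 74 in SMA.

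Ndufa7 (chromosome 17, 33824572 to 33838317), an accessory subunit of the Q module, had the lowest ratio in SMA, at FPKM 80.5, 82.9 and 60.5 at P2, P6 and P10, -0.41 ± 0.45. In control it was at 80.8, 71.9 and 61.6. P10 was the lowest age in both genotypes, and the values of the genotypes at P10 were nearly equal. Atp5d was at -0.39 ± 0.98 in SMA, Uqcrq at -0.34, Cox6a1 at -0.33 and Sdhb at -0.29, while Atp5j was at 0.25, Uqcrb at 0.24, Ndufs1 at 0.19, Cox6b2 at 0.05, Sdha at -0.01 and the Atp5o fragment at 0.95.

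Set side by side, 35 of 74 members were lower at P10 in both genotypes, 10 were higher in both, 26 were higher in control and lower in SMA, and 3 the reverse. Of 10441 genes at FPKM 5 or more in 1 group, 3426 were lower in both, 3206 higher in both, 1993 higher in control and lower in SMA, and 1816 the reverse. Complex IV had 9 of 12 genes lower in both, and complex I had 14 of 34 lower in both and 16 of 34 in opposite directions with control the higher. The 2 genotypes share no group in this comparison, but the difference between them was tested only as the change above, which called 0 members.

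**Figure D5:**
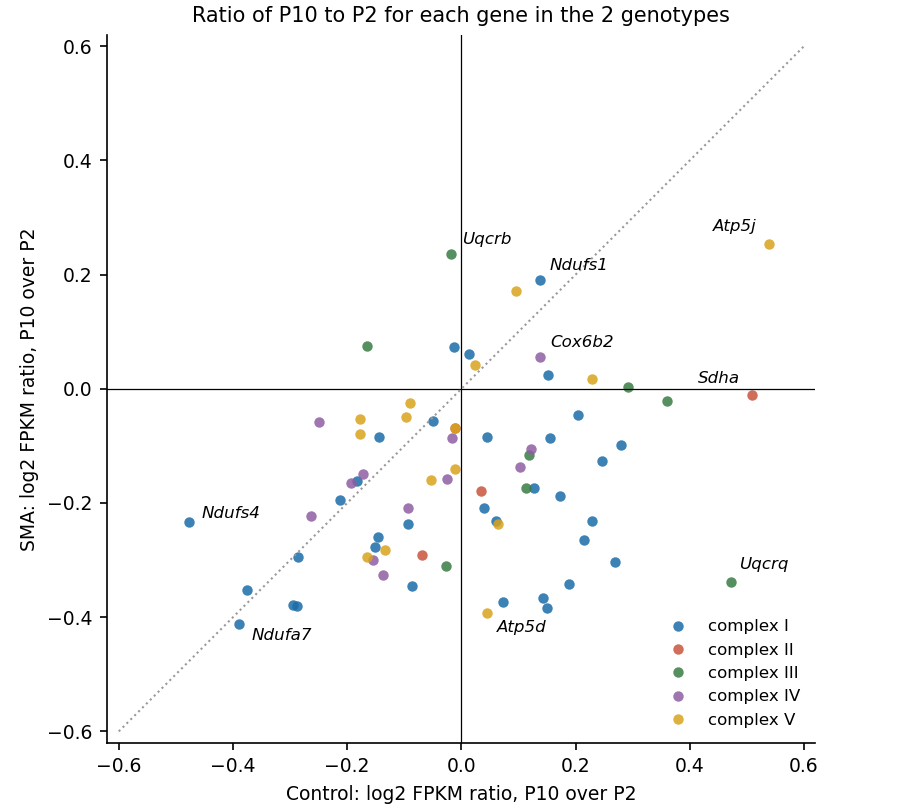
Log2 FPKM ratio of P10 over P2 in control (x axis) and SMA (y axis) for 73 members, coloured by complex, with the line of equal ratios dotted; the Atp5o fragment lies outside the axes. Most points lie below 0 on the y axis, while they fall on either side of 0 on the x axis.

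With the genotypes taken as replicates of the age difference, limma called 0 members between P10 and P2 (0.0137% of all genes were called). With edgeR 0 members were called, and its calls over all genes were again not counted. At an unadjusted p under 0.05 in limma there were 7 of 74 members, a smaller share than the 15.4% of all genes. Of these 7, 5 were among the 34 genes of complex I, which is about the share over all genes. Ndufa7 was at -0.39 ± 0.11, Ndufa6 at -0.36 ± 0.11, Ndufs4 at -0.34 ± 0.11, Ndufc2 at -0.33 ± 0.10 and Ndufa1 at -0.33, on the log2(FPKM + 1) scale. Atp5j was at 0.39 ± 0.12, and the remaining one was the Atp5o fragment. Their adjusted p values in limma were 0.288 to 0.295.

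P10 was the lowest age in both genotypes for the 2 other complex I genes shown here. Ndufa6 was at FPKM 80.1, 71.7 and 61.7 in control and 81.0, 81.8 and 63.4 in SMA. Ndufc2 was at 74.9, 61.8 and 61.1 in control and 76.6, 65.4 and 58.9 in SMA. Atp5j was at 65.4, 67.6 and 78.0 in SMA, so P10 was its highest age in both genotypes.

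The rest of the pathway was read from lists of related genes. The mitochondrially encoded subunits were mostly held in joined loci, and mt-Nd6, a complex I subunit, was the one with a locus of its own. It was at FPKM 1088, 1294 and 1810 in control and 1175, 1209 and 1534 in SMA, higher at P10 than at P2 by 0.73 in control and 0.38 in SMA. The joined locus that holds mt-Co1, mt-Co2, mt-Co3, mt-Atp6 and mt-Nd4 was at 10539, 12451 and 16448 in control and at 12638, 12463 and 12836 in SMA. Control at P10 was the highest group for both loci, while the nuclear members were balanced over the same ages. The deposited intervals of these loci are very wide, with an SE of 7.66 for mt-Nd6 in each genotype, and mt-Nd6 was not called.

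Enzymes of the tricarboxylic acid cycle and pyruvate dehydrogenase were higher at P10 than at P2 in control for 17 of 19 genes, with a median of 0.29, where the nuclear members had -0.01. Mpc1, a subunit of the mitochondrial pyruvate carrier, was at FPKM 82.4, 82.4 and 97.9 in control and 91.0, 92.1 and 94.7 in SMA. In SMA 7 of 19 were higher at P10, with a median of -0.03. SMA was above control for 18 of 19 at P2 (median 0.18) and 19 of 19 at P6 (0.16). At P10 it was below control for 14 of 19 (-0.16). Of genes at FPKM 5 or more in 1 group, 53.9%, 72.9% and 52.6% were above control at P2, P6 and P10, with medians of 0.02, 0.10 and 0.02. The lists that follow have the same background. None of the 19 was called in any of these comparisons.

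Glycolytic genes gave a like picture, with 0 called among 15 or 16 genes tested. The medians of SMA over control were 0.20, 0.20 and -0.17 at the 3 ages. Gapdh was at FPKM 266, 270 and 283 in control and 284, 309 and 247 in SMA, and Aldoa at 199, 211 and 240 in control and 225, 232 and 198 in SMA. The pattern of higher SMA values at P2 and P6 and lower ones at P10 was thus also found in energy genes outside the respiratory chain. It was not particular to energy genes, as 28.2% of genes at FPKM 5 or more in 1 group had it. Mature oligodendrocyte markers had it too, with 5 of 5 above control at P2 and P6 and 0 of 5 at P10. Schwann cell markers also had it, with 3 of 3 above control at P2 and P6 and 0 of 3 at P10. Of the astrocyte markers 4, 3 and 1 of 4 were above control at the 3 ages. Neuron markers as a list did not have it, with 1 of 5 above control at P2. Snap25 of that list had ratios of 0.23, 0.18 and -0.18. The part of these cell types in the pattern was not tested.

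Regulators of mitochondrial biogenesis were counted in the same way, and their difference from the other lists was not tested. Of 12 tested, 3 were above control at P2, 8 at P6 and 6 at P10, with medians of -0.03, 0.06 and -0.01. Tfam, which packages mitochondrial DNA, was at FPKM 10.7, 9.14 and 9.10 in control and 8.82, 9.11 and 7.40 in SMA, and Yy1 at 9.81 to 11.3 over the 6 groups. Gabpa was at 9.10, 8.68 and 8.69 in control and 7.70, 9.10 and 8.46 in SMA, and Nrf1 at 6.80 to 7.82 over the groups. None of the 12 was called.

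Assembly factors had medians of SMA over control that, for complex I, were 0.07, 0.03 and -0.01 at P2, P6 and P10 over 13 genes, and for complexes II to V 0.07, 0.14 and -0.07 over 29 or 30 genes, with 0 called in each. Ndufaf2 was at FPKM 19.6, 29.0 and 32.8 in control and 21.1, 33.5 and 25.2 in SMA, and Uqcc2 had a P10 to P2 ratio of -0.63 in control and -0.04 in SMA. Electron carriers and their makers had 0.18, 0.15 and -0.08 over 13 genes. Cycs, which encodes cytochrome c, was at 35.2, 30.9 and 36.8 in control and 36.3, 38.1 and 38.4 in SMA. Mitochondrial carriers and pores had 0.13, 0.14 and -0.08 over 10 genes, with Slc25a4, an ATP and ADP carrier, at 240, 226 and 221 in control and 246, 240 and 224 in SMA. Of the subunits that the symbol rule leaves out, 5 of 5 tested were above control at P2 and at P6, and Cyc1, cytochrome c1 of complex III, was at 45.3, 45.7 and 56.2 in control and 53.9, 53.0 and 48.8 in SMA. The uncoupling proteins held the one called gene of all these lists, Ucp1, which fell in SMA from 7.70 at P2 to 0.159 at P10. In control it was at 3.66 and 0.251 at these ages, a log2 ratio of -3.86 with an adjusted p of 0.0703 in the z test, and the brown fat list, which holds Ucp1, was lower at P10 in both genotypes, as given above.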

How the data were processed

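Libraries were made with a stranded total RNA kit after ribosomal RNA removal. Per the submitters' processing notes, the tools were Cufflinks 2.2.1 with Cuffdiff, TopHat2 2.1.1 over Bowtie2 2.2.4, FastQC and Picard, on GRCm38; the annotation release and strand setting were not given in the sources used here. The deposited tables hold FPKM with the lower and upper bound of a model interval, in FPKM. The authors also deposited an estimated count (expected count) per locus and group, made by Cuffdiff with a model variance. Each value combines the 3 libraries of a group, so no values per library were analysed here, and nothing in the labels says how far libraries came from separate animals; p values measure only the spread that the interval or the ages hold.

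For a pair of groups the log ratio of their FPKM was set against its SE (z test, two-sided), with the SE of each FPKM taken as the distance of the upper bound to it divided by 1.96 (read as a normal interval). Genes tested had FPKM 1 or more in 1 of the groups, FPKM above 0 in both and a status of OK. P values were adjusted over all genes tested by the Benjamini-Hochberg method, and called genes are those with adjusted p under 0.05. limma 3.58.1 (R 4.3.3) took the 6 values per gene as log2(FPKM + 1), with terms for genotype and age, which leaves 2 residual degrees of freedom; edgeR 4.0.16 was an alternative on the counts, rounded to whole numbers. Centred ratios are relative to the median of genes at FPKM 5 or more in both groups. The remaining steps used matplotlib 3.10.9, pandas 2.3.3, numpy 2.4.6 and scipy 1.17.1 in Python 3.11.15. Both tests were also run on simulated data. Their noise was drawn as wide as the deposited interval or the fitted spread, so they cannot show whether that width is right. Sequences are from RefSeq.

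The members and all lists were chosen with earlier results of these data known. Named members were a fixed set of catalytic subunits and paralogue pairs, the highest and lowest ratio per complex and comparison, called members, the most and least abundant member per complex, and the 2 most abundant genes of each list; other genes were named after their values were seen. Some genes that this rule names are not reported here.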

Additional observations from a re-analysis of the deposited data

How the results depend on the processing

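No paired analysis was possible because the deposited tables hold 1 combined value per group and no value per library; leaving out a replicate was not run for the same reason. The count of called members was 0 under every one of the 41 alternatives. Among them were expected counts with their variance, no filter on low values, a filter at FPKM 5 and intervals that do not overlap. For the fits they included pseudocount 0.1, no trend, edgeR and leaving out an age. Calls over all genes were counted only for the main settings, for intervals that do not overlap and for the genotype fit without P10. Of 36 medians over the members 33 kept their sign and moved by at most 0.1. At P6 centring brought the median of the members from 0.15 to 0.043, those of complexes I, II, III and V to 0.052, 0.050, 0.033 and 0.054, and complex IV changed sign to -0.038; this follows from the shift of 0.11 over all genes. Medians close to 0 changed sign: for control P10 against P2 from -0.01 to 0.015 with counts and 0.0021 centred, with complex V at 0.0017 centred; and for SMA against control at P10 complex IV to 0.0067 and complex V to -0.041 with counts, and complex V to -0.0026 centred. Single genes that changed sign were Uqcrc2 at P2 (0.021 with counts) and Sdha in SMA P10 against P2 (0.013 with counts, 0.0075 centred). In the genotype fit, 3 members had an unadjusted p under 0.05 without P10 and 0 otherwise. Leaving out Atp5o, Atp5s and Atp5sl, or counting Ndufa4 and Ndufa4l2 with complex IV, both chosen after seeing the data, moved no complex median by over 0.1. The width of the deposited interval, a median distance of 45.4% of the FPKM to the upper bound, limits what could be called.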
